A study of Mus musculus with 4 samples.

Results

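The enzymes described here are 8 of the steps by which a mouse cell makes cholesterol: Hmgcs1, Mvd, Idi1, Fdps, Fdft1, Sqle, Lss and Cyp51. They were taken by symbol from the 24421 genes counted in the Illumina TruSeq libraries, and all 8 were among the 19891 genes that were tested because at least 1 library had a count for them. Of these libraries, 2 are Undiff and 2 are Day4, all from the R1 line of mouse embryonic stem cells (ESCs), with no genetic change named in either state. The methods describe Undiff as ESCs kept with leukaemia inhibitory factor, whereas the labels describe embryoid bodies, which are aggregates of differentiating ESCs. Day4 is embryoid bodies grown for 4 days without that factor and then for 4 days with retinoic acid (RA). The dose of RA is given as 2 µM in the methods and in the design text, and as 2 mM in the treatment protocol of the labels. The replicates of a state were grown and treated separately according to the methods. The design figure of the paper gives 4 days of growth for Undiff. Day4 therefore differs from Undiff in RA, in the cytokine and in culture time together, and by the methods also in growth as aggregates. These differences cannot be told apart here.

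Cholesterol is built from acetyl-CoA in a long series of steps in the cytosol and the endoplasmic reticulum. The early steps make isoprene units and join them to farnesyl diphosphate, which also feeds protein prenylation, dolichol and ubiquinone. Squalene synthesis commits the pathway to sterols, and later steps close the rings and trim the side groups. When membranes are short of sterol, the escort protein SCAP carries SREBP factors to the Golgi, where proteases release them, and they then raise the transcription of most of these enzymes. INSIG proteins hold SCAP back when sterol is plentiful.

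Promoter sequences from RefSeq (GRCm38.p6), covering 250 bases before and 50 bases after the annotated start of transcription, were at hand for 5 of the 8 genes (Hmgcs1, Mvd, Idi1, Lss and Cyp51). The promoters shown belong to the only enzyme that rose in Day4, the only one that reached a fold change of 2, and one that did not pass the test. Capitals mark a sterol regulatory element written as TCACNCCAC (a form of the site that SREBP factors read) and CCAAT boxes (read by the factor NF-Y). Both were searched on either strand, so that ATTGG is a CCAAT box on the other strand. The Hmgcs1 promoter lies at chr13:119690101-119690400 on the plus strand, that of Idi1 at chr13:8885356-8885655 on the plus strand, and that of Cyp51 at chr5:4104648-4104947 on the minus strand.
Hmgcs1: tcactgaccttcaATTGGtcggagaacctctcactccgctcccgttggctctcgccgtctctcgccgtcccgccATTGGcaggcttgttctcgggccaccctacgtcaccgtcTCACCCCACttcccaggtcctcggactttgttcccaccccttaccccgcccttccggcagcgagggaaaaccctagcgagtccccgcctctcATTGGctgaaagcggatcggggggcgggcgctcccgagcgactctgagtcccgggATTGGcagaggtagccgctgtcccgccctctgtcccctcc
Idi1: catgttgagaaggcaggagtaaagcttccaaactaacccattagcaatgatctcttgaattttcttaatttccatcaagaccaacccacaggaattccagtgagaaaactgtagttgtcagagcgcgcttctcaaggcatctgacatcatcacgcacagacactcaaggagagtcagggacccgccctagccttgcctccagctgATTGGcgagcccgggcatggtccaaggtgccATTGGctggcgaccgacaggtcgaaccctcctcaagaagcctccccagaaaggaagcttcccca
Cyp51: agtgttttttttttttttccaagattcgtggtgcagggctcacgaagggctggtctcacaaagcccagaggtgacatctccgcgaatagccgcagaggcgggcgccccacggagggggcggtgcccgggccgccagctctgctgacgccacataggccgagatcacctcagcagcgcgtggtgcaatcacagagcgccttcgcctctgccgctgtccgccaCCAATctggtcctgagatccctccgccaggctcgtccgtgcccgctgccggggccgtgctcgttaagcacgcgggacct

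Of the 5 promoters, only that of Hmgcs1 held the letters TCACNCCAC, at 137 to 129 bases before the start. The same letters were found in 1.24% of the 32851 promoters of this length in the RefSeq table. A CCAAT box was found in all 5, compared with 37.4% of all promoters. Hmgcs1 had 4 of them, Mvd and Idi1 had 2 each, and Lss and Cyp51 had 1 each. A GC box (GGGCGG, on either strand, not in capitals above) was also found in all 5, compared with 35.7% of all promoters. These are matches of letters and were not tested as sites of binding. Other forms of the sterol regulatory element were not searched, so a promoter without TCACNCCAC may still hold such an element.

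The libraries held 36674893 and 32099074 counts on genes in Undiff, and 34956489 and 47730944 in Day4. CPM stands for a gene's counts in every 1000000 of its library, with no other scaling. Normalized counts are scaled in addition by TMM (trimmed mean of M-values), which sets the bulk of genes level between libraries. All 8 pluripotency markers fell, from 3647 and 3731 CPM in total in the Undiff libraries to 23.8 and 20.1 in Day4. Of the mesoderm and muscle markers 7 of 8 rose, with between 25.3 and 28.2 CPM in Undiff and between 666 and 694 in Day4. Of the fibroblast markers 7 of 8 also rose, with between 58.9 and 63.7 CPM in Undiff and between 1560 and 1720 in Day4. Of the neural markers, 2 of 8 were DEGs higher in Day4 and 4 were DEGs lower, and their sum was between 148 and 162 CPM in every library. Of the 7 visceral endoderm markers with a count, 4 were DEGs higher in Day4 and 2 were DEGs lower, with Afp at 0 counts in both Undiff libraries and Alb, the other marker of that list, at 0 in all 4. Their sum was 32.2 and 37.6 CPM in Undiff and 16.0 and 14.9 CPM in Day4, of which Cubn, a DEG lower in Day4, made up 27.7 and 32.6 CPM in Undiff and 2.63 and 2.39 CPM in Day4. Of the 6 markers of steroid-making cells, 1 was a DEG in each direction, and they summed to 19.3 and 19.6 CPM in Undiff and 26.1 and 28.01 CPM in Day4. The DEG higher, Nr5a1, had only 4 and 0 counts in Undiff and 7 and 13 in Day4. With the DESeq2 settings of the paper or with a replicate block, 0 of these markers were DEGs higher. Fragments assigned to no gene made up 12.1% and 13.2% of a library in Undiff and 7.50% and 7.74% in Day4. The part of any of these in the results on the enzymes was not tested. In such bulk samples, a change in the mix of cells and a change of RNA per cell cannot be told apart.

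In Day4, 5 of the 8 enzymes fell, 1 rose and 2 did not pass the test. The quasi-likelihood test of edgeR was used, with p-values adjusted by the Benjamini-Hochberg method over all 19891 genes and a threshold of 0.05. Over all genes tested, 37.7% were lower by this rule and 37.9% were higher. A DEG (differentially expressed gene) had to pass this test, change by 1 or more on the log2 scale in either direction, and average 5 or more normalized counts. Of the enzymes, 1 was a DEG lower in Day4 (20.6% of all genes) and 0 were DEGs higher (22.2% of all genes). The median log2 fold change (log2FC, Day4 over Undiff) of the 8 was -0.23, compared with -0.03 over all genes tested and 0.03 over the 16472 that average 5 or more normalized counts, as all 8 enzymes do. The median of the absolute values was 0.31, compared with 1.07 over those 16472 genes. It was 1.25 over all genes tested, which include genes of very few counts whose log2FC can be large from a single count. The libraries of the 2 states did not overlap for 6 of the 8 enzymes, which was also so for 85.4% of all genes. With 2 libraries per state, an exact permutation test cannot give a two-sided p below 0.333, and the adjusted p-values draw on a spread estimated jointly over genes.

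**Figure D1:**
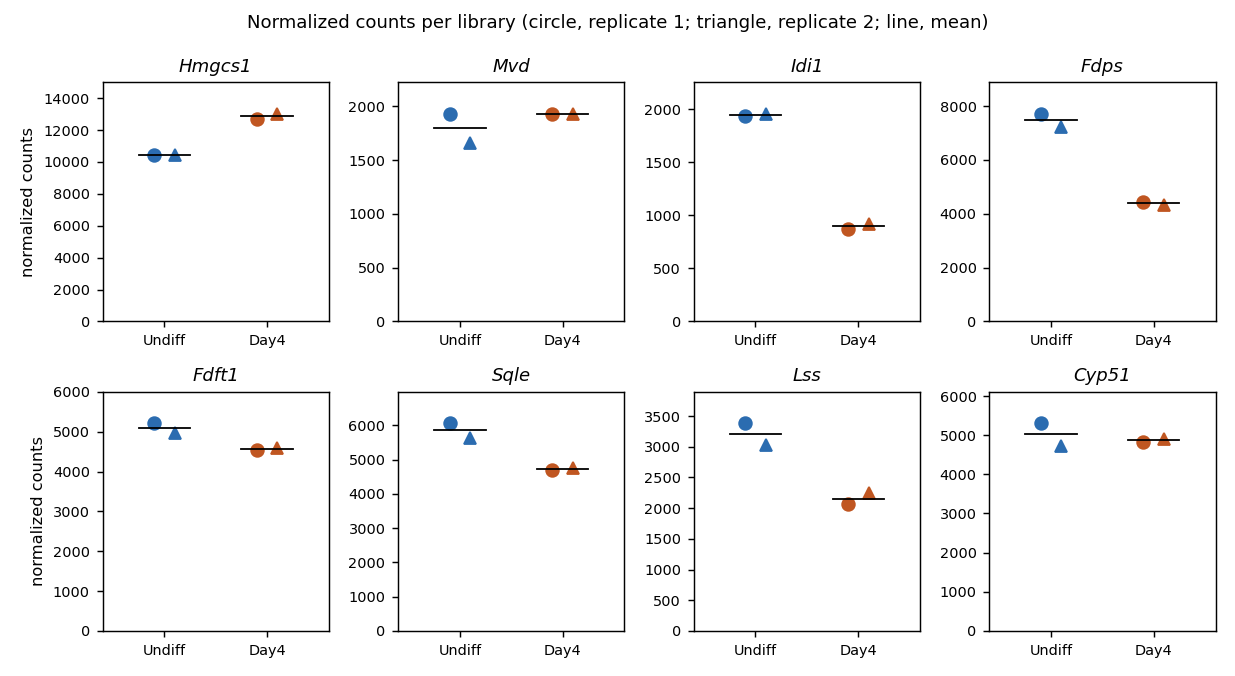
Normalized counts (vertical axes, each starting at 0) of the 8 enzymes in the 2 Undiff and 2 Day4 libraries. Points are libraries and lines are means; Idi1 falls from about 1947 to 898 normalized counts, Hmgcs1 stands higher in Day4, and the states overlap for Mvd and Cyp51.

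Among the early enzymes, Hmgcs1 stood apart in direction. It encodes the cytosolic HMG-CoA synthase, which joins acetyl-CoA and acetoacetyl-CoA at the head of the mevalonate route (chromosome 13, 119690379 to 119708260 of GRCm38, plus strand). It had 10459 and 10412 normalized counts in the Undiff libraries and 12666 and 13038 in the Day4 libraries. Both Day4 libraries lay above both Undiff libraries, and the gap was several times the difference between replicates. The log2FC was 0.30 (standard error, SE, 0.04; edgeR adjusted p = 9.7e-06), a rise of 1.23-fold that stayed under the minimum fold change of a DEG.

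Mvd encodes the decarboxylase that turns mevalonate diphosphate into isopentenyl diphosphate, the first isoprene unit (chromosome 8, 122433601 to 122443422, minus strand). It had 1934 and 1660 normalized counts in Undiff and 1926 and 1926 in Day4. The Day4 libraries lay between the 2 Undiff libraries, and Undiff replicate 2 was below the other 3 libraries. The log2FC was 0.10, with a 95% confidence interval from -0.05 to 0.24 (adjusted p = 0.20 from edgeR). The value depended on the Undiff libraries: it was 0.22 without replicate 1 (adjusted p = 0.0027 from edgeR) and -0.0058 without replicate 2 (adjusted p = 0.93 from edgeR).

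Idi1 was the only DEG of the 8. It encodes the isomerase that converts isopentenyl diphosphate into its reactive isomer, with which chain building starts (chromosome 13, 8885501 to 8892451, plus strand). Its normalized counts were 1933 and 1961 in Undiff and 875 and 921 in Day4. The replicates of each state were close together, and the states were far from overlapping. The log2FC was -1.11 (SE 0.06, edgeR adjusted p = 6.0e-10), or 2.16-fold lower in Day4. Its 95% confidence interval, from -1.24 to -0.99, just included the minimum of -1 for a DEG, and Idi1 passed edgeR's test against a fold change of 2. The neighbouring isomerase gene Idi2 had 2 and 1 counts in Undiff and 0 and 0 in Day4, below the floor of 3 counts in all libraries.

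Fdps encodes farnesyl diphosphate synthase, which joins isoprene units and stands where the sterol route parts from prenylation, dolichol and ubiquinone (chromosome 3, 89093588 to 89101959, minus strand). It had 7724 and 7216 normalized counts in Undiff and 4444 and 4333 in Day4. Both Day4 libraries lay well below Undiff. The log2FC was -0.77 (SE 0.05, edgeR adjusted p = 3.5e-09), or 1.70-fold lower, the second-largest change of the 8.

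The enzymes that make squalene and close it into a sterol all fell, by less than Idi1 and Fdps. Fdft1 encodes squalene synthase, the first enzyme committed to sterols (chromosome 14, 63145150 to 63179578, minus strand). It had 5222 and 4963 normalized counts in Undiff and 4553 and 4603 in Day4. The gap between the states was not much larger than the difference between the Undiff replicates, and the log2FC was -0.15 (SE 0.05, edgeR adjusted p = 0.0073). The call was lost without Day4 replicate 1 (-0.15, adjusted p = 0.061 from edgeR) and with library totals in place of TMM scaling (-0.09, adjusted p = 0.096 from edgeR). Of its 3698 exon bases, 774 also belong to exons of Ctsb on the other strand. The methods name strand-specific counting for direct RNA libraries alone, and exons of the TruSeq libraries were counted there without regard to strand. The counts of Fdft1 are therefore uncertain over the shared bases. Ctsb, a lysosomal protease, rose in Day4 with a log2FC of 1.10.

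Sqle encodes squalene epoxidase, an oxygen-dependent enzyme that is a slow step of the sterol route (chromosome 15, 59315077 to 59331192, plus strand). It had 6069 and 5633 normalized counts in Undiff and 4688 and 4760 in Day4. The states did not overlap, and the log2FC was -0.31 (SE 0.05, edgeR adjusted p = 4.7e-05). Lss encodes lanosterol synthase, which folds the epoxide into lanosterol, the first sterol (chromosome 10, 76531588 to 76557138, plus strand). It had 3389 and 3027 normalized counts in Undiff and 2063 and 2243 in Day4. Here too the states were apart, with a log2FC of -0.57 (SE 0.06, edgeR adjusted p = 1.6e-06), or 1.49-fold lower. Exon sequence of 4930483K19Rik on the other strand covers 381 of its 4667 exon bases. That gene as a whole had a mean of at most 7.31 normalized counts in either state, which does not give the fragments on the shared bases.

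Cyp51 encodes lanosterol demethylase, the cytochrome P450 that acts first on lanosterol (chromosome 5, 4081145 to 4104746, minus strand). It had 5314 and 4732 normalized counts in Undiff and 4830 and 4900 in Day4. Both Day4 libraries lay within the range of Undiff. The log2FC was -0.05 (adjusted p = 0.44 from edgeR), with a 95% confidence interval from -0.16 to 0.07. It was -0.13 without Undiff replicate 2 (adjusted p = 0.016 from edgeR) and 0.040 without Undiff replicate 1 (adjusted p = 0.44 from edgeR). With Akap9 on the other strand, Cyp51 shares 166 of its 3931 exon bases.

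Replicate 1 of Undiff stood above replicate 2 for 7 of the 8 enzymes after scaling, and Idi1 was the exception. For Hmgcs1 the 2 were nearly equal, with 10459 and 10412 normalized counts. The share of all genes with this order was not computed. The median absolute log2 ratio of the replicates over the 8 enzymes was 0.10 in Undiff and 0.03 in Day4. Over all genes averaging 10 CPM or more, the same ratio was 0.07 in Undiff and 0.05 in Day4.

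**Figure D2:**
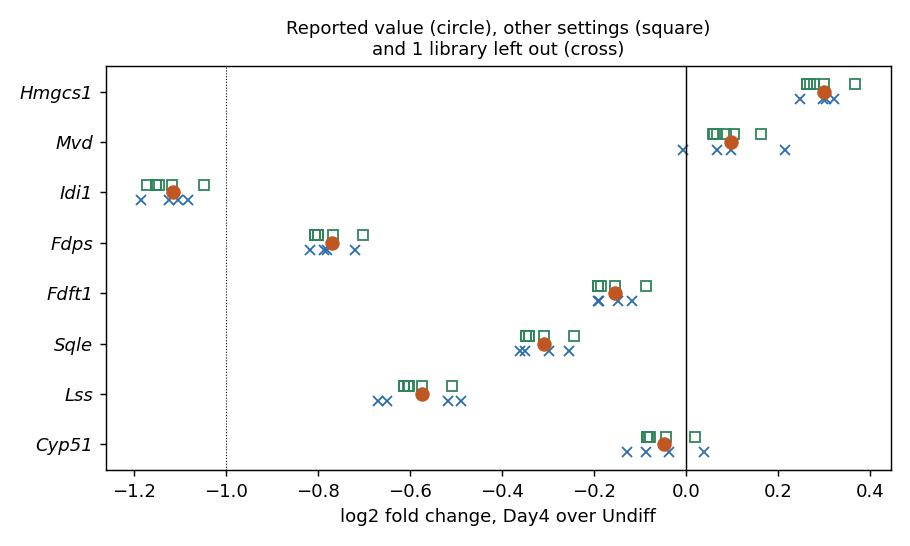
Log2FC of each enzyme (horizontal axis) as reported (circles), under 6 other settings (squares) and with each of the 4 libraries left out (crosses). Idi1 stays beyond -1 throughout, while the values of Mvd and Cyp51 fall on both sides of 0.

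The relative amounts of the 8 mRNAs within a library do not depend on how the libraries are scaled. Hmgcs1 made up 24.9% and 26.3% of the counts on the 8 genes in Undiff and 35.1% and 35.5% in Day4. Idi1 made up 4.60% and 4.95% in Undiff and 2.43% and 2.51% in Day4, and Fdps made up 18.4% and 18.2%, then 12.3% and 11.8%. The share of Fdft1 was between 12.4% and 12.6% in every library. The exact binomial 95% intervals of these shares were at most 0.505 percentage points to either side and cover counting error only. For each count of Idi1 there were 5.41 and 5.31 counts of Hmgcs1 in Undiff and 14.5 and 14.2 in Day4. The ratio of Fdft1 to Fdps was 0.676 and 0.688 in Undiff and 1.02 and 1.06 in Day4, higher in both Day4 libraries. The 8 genes together held 1100 and 1031 CPM in Undiff and 987 and 1002 CPM in Day4. Without Hmgcs1, they held 826 and 760 CPM in Undiff and 640 and 646 CPM in Day4.

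**Figure D3:**
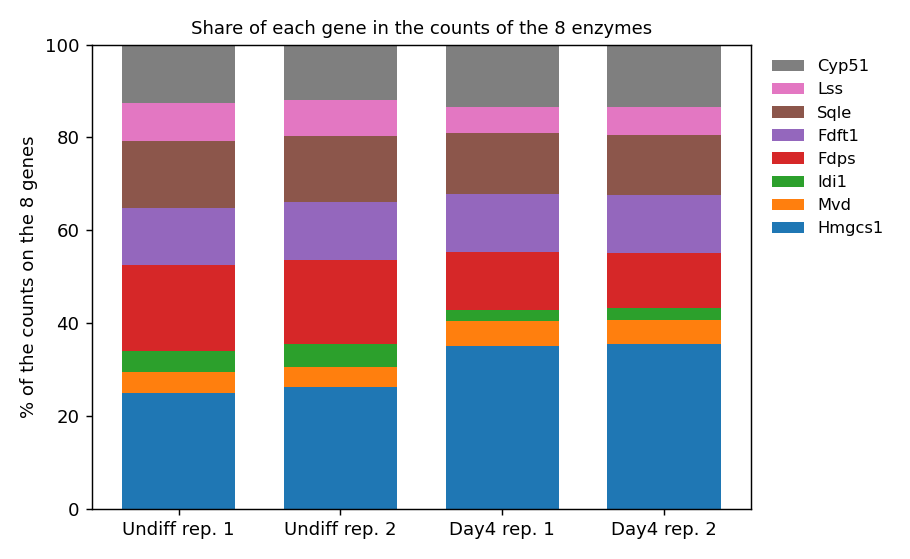
Stacked bars of the share of each enzyme (vertical axis, percent) in the counts on the 8 genes, 1 bar per library. The share of Hmgcs1 is 24.9% and 26.3% in Undiff and 35.1% and 35.5% in Day4, and those of Idi1 and Fdps are smaller in Day4.

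Levels can be compared between genes only per length, here as CPM per kilobase of exon in the GENCODE annotation. In Undiff, Fdps was the highest with 134 ± 6.92 (SD, n = 2), followed by Hmgcs1 with 78.2 ± 0.523 and Sqle with 55.4 ± 3.11. In Day4, Hmgcs1 was the highest with 101 ± 1.81, followed by Fdps with 82.6 ± 1.68 and Sqle with 46.8 ± 0.386. Fdft1 and Cyp51 came next with 35.9 ± 1.42 and 33.4 ± 2.85 CPM per kilobase in Undiff, and with 33.8 ± 0.173 and 33.8 ± 0.257 in Day4. At these full lengths the 2 neighbours did not differ beyond their spread. The lengths include exon bases shared with genes on the other strand, 774 of 3698 for Fdft1 and 166 of 3931 for Cyp51. Their order is uncertain, since the methods name strand-specific counting for direct RNA libraries alone. Mvd followed with 26.7 ± 2.98 in Undiff and 29.99 ± 0.0750 in Day4. Lss and Idi1 were the lowest, with 17.9 ± 1.49 and 16.8 ± 0.112 in Undiff, within their spread, and with 12.6 ± 0.715 and 8.11 ± 0.268 in Day4. Lss shares 381 of its 4667 exon bases in the same way, so that its level has the same limit. In every library the top 2 were thus Fdps and Hmgcs1, which changed places between the states.

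The 11 other synthesis genes examined all passed the test, with 6 lower and 5 higher in Day4. Of these, 2 were DEGs lower and 0 were DEGs higher, and the median log2FC was -0.38. For this list and those below, the shares over all genes tested were 37.7% lower and 37.9% higher by the test. DEGs lower made up 20.6% of all genes and DEGs higher 22.2%. Before the 8 enzymes or between them, Acat2 (acetoacetyl-CoA thiolase) rose with a log2FC of 0.63 and Mvk (mevalonate kinase) rose with 0.88, whereas Pmvk, the kinase that follows, fell with -0.52. Neighbouring steps of the mevalonate part thus had opposite directions.

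After Cyp51, the reductase step can be carried by Lbr or by Tm7sf2. Lbr had 17402 and 17261 normalized counts in Undiff and 4547 and 4479 in Day4, a log2FC of -1.94 (SE 0.04, edgeR adjusted p = 7.3e-14). The same protein is the lamin B receptor of the inner nuclear membrane. Tm7sf2 rose, with 621 and 646 normalized counts in Undiff and 748 and 818 in Day4 and a log2FC of 0.31. The demethylation genes Msmo1 and Nsdhl fell with -0.41 and -0.38, and Hsd17b7, which acts with them, rose with 0.75.

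Of the last steps, Ebp (the sterol isomerase) fell with a log2FC of -0.81 and Sc5d (the desaturase) rose with 0.26. Dhcr7, which makes cholesterol or desmosterol in the final reduction of the ring, had 5579 and 5145 normalized counts in Undiff and 1749 and 1768 in Day4. Its log2FC was -1.61 (SE 0.05, edgeR adjusted p = 5.8e-12), further from 0 than that of any of the 8 enzymes.

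**Figure D4:**
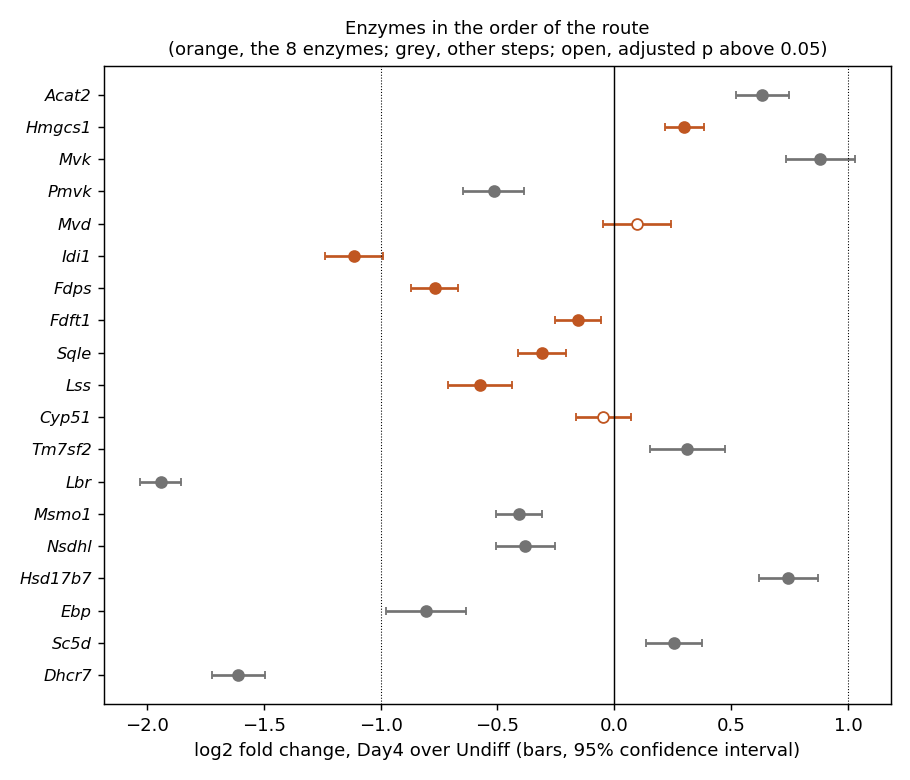
Log2FCs of Day4 over Undiff (horizontal axis) with 95% confidence intervals (bars), genes in the order of the route from top to bottom. Orange marks the 8 enzymes and grey the 11 other steps; Lbr, Dhcr7 and Idi1 lie beyond -1, and both directions occur before and after squalene.

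Among the genes that sense sterol, 3 of 10 fell and 6 rose, with 1 DEG lower, 0 DEGs higher and a median log2FC of 0.29. Srebf2, the SREBP gene tied most closely to cholesterol synthesis, had 9062 and 8191 normalized counts in Undiff and 10039 and 9412 in Day4. The log2FC was 0.17 (SE 0.05, edgeR adjusted p = 0.0091). Srebf1 had a log2FC of 0.06, with a 95% confidence interval from -0.04 to 0.16 (adjusted p = 0.23 from edgeR), and shares 109 of its 4299 exon bases with Rai1 on the other strand. Scap rose with 0.80 and the protease gene Mbtps1 with 0.66, and the second protease gene, Mbtps2, fell with -0.51, although 2867 of its 7950 exon bases are shared with Yy2.

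Insig1, itself a target of the SREBP factors, had 5169 and 4308 normalized counts in Undiff and 2222 and 2192 in Day4. Its log2FC was -1.10 (SE 0.07, edgeR adjusted p = 6.6e-09), close to that of Idi1. Without Undiff replicate 1, 0 genes of the sensing list were DEGs lower in Day4, so that its place past the minimum fold change rests on that library. Insig2 rose with 0.42.

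Genes of sterol uptake and transfer mostly rose: 7 of the 11 examined were higher, 5 of them DEGs, and 3 were lower, 1 of them a DEG, with a median log2FC of 0.60. The highest log2FC was that of Lrp1, a large endocytic receptor of the lipoprotein receptor family, with 1.82 (SE 0.06). The lowest was that of Lrp8, a receptor of the same family, with -1.65 (SE 0.09). Among 11 genes of efflux, esterification and oxysterol formation, 5 fell, 4 of them DEGs, and 3 rose, 2 of them DEGs, with a median log2FC of -0.17 (-0.27 over the 10 that average 5 or more normalized counts). Soat2, which esterifies cholesterol, went from 314 and 282 normalized counts to 33.4 and 24.6, and Cyp7b1, an oxysterol hydroxylase, from 83.4 and 88.5 to 887 and 864. Ch25h was at most 2 counts in either Undiff library and at 3 and 4 counts in Day4, so that no fold change is given.

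Fatty acid synthesis, which shares SREBP factors with the sterol route, was split as well. Of 13 genes, 8 fell, 3 of them DEGs, and 5 rose, 3 of them DEGs, with a median log2FC of -0.81. Acacb, an acetyl-CoA carboxylase, had the lowest log2FC with -1.99 (SE 0.07), and Fads2, a desaturase of polyunsaturated fatty acids, had the highest with 1.73 (SE 0.05). Of 12 genes on the other branches of isoprenoid use, 3 fell, 1 of them a DEG, and 5 rose, 3 of them DEGs, with a median log2FC of -0.02 (0.02 over 11 genes without Idi2, which was at the floor). Among these DEGs, Pdss1, which makes the ubiquinone tail, had the lowest log2FC with -1.36 (SE 0.09), and Dolk, which makes dolichol phosphate, had the highest with 1.77 (SE 0.09).

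**Figure D5:**
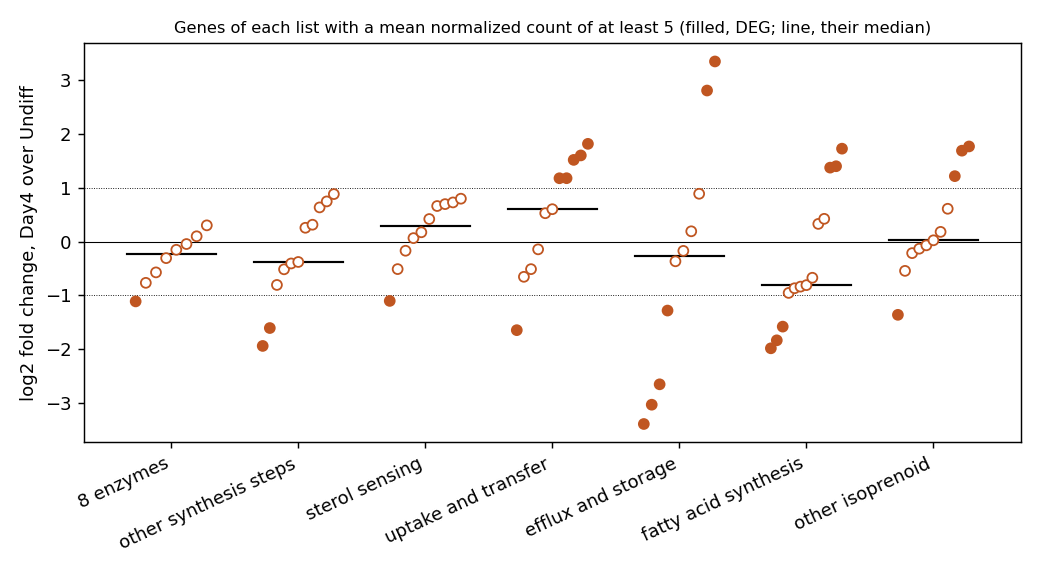
Log2FC of Day4 over Undiff (vertical axis) for the genes of each list, 1 point per gene averaging 5 or more normalized counts, filled for DEGs, with the median of the genes shown as a line. The 8 enzymes span -1.11 to 0.30, a narrower range than the genes of uptake, efflux or fatty acid synthesis.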

How the data were processed

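RNA of 2 Undiff and 2 Day4 samples was sequenced by the authors on the Illumina platform. Reads were trimmed (cutadapt), mapped to the mm10 genome by STAR version 2.4.2a, and unique alignments were counted per gene by htseq-count. The deposited values are raw counts per gene symbol. The methods say that strandedness was taken into account in counting and name only direct RNA libraries as counted strand-specifically. The option for the gene counts of the TruSeq libraries is not spelled out. For the exon counts of the paper, the TruSeq libraries were counted without regard to strand. The 5 summary lines of each file were left out of library totals. Groups and replicate numbers came from the sample titles.

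Tests used edgeR 4.0.16 in R 4.3.3 (TMM scaling, then glmQLFit and glmQLFTest), without a replicate term. Normalized counts are counts brought to a common effective library size, the geometric mean over libraries. The standard error is the log2 fold change divided by the square root of F. Replicates differed by more than counting noise, with a chi-square per degree of freedom of 5.71 in Undiff and 3.07 in Day4. Alternatives were DESeq2 1.42.0 with the settings of the paper, other scalings, filterByExpr, thinning, a replicate block, a test against a fold change of 2 and leaving out each library.

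Positions and exon lengths are from GENCODE vM21 (GRCm38, the assembly of mm10), which differs from the annotation used for counting. The enzymes and the gene lists were chosen with earlier results of these data known. Named genes were the 8 enzymes, the other synthesis steps, the SREBP, SCAP and INSIG genes, the extremes among the DEGs of each other list, genes at the floor, and the 5 genes nearest to the enzymes in profile. Mbtps1, Mbtps2 and genes that share exons with a named gene were named after their values were seen. Some genes that these lists would hold are not reported here.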

Additional observations from a re-analysis of the deposited data

How the results depend on the processing

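Each log2 fold change of the 8 enzymes was recomputed under 10 alternatives. Of these 80 values, 72 kept their direction and their side of an adjusted p of 0.05, 2 no longer passed, 3 passed in addition and 3 changed sign. The sign changed for Mvd without Undiff replicate 2 (-0.0058; 0.22 without replicate 1) and for Cyp51 with library totals (0.020) and without Undiff replicate 1 (0.040; -0.13 without replicate 2). With library totals, which moved the median of all genes by 0.0662, 2 enzymes were higher by adjusted p, since Mvd joined Hmgcs1 (log2 fold change 0.16). With each library left out, the enzymes lower by adjusted p numbered between 4 and 6 and those higher between 1 and 2. The number of DEGs among them was 1 lower and 0 higher throughout, and those among the 11 other synthesis genes were 2 and 0. Counts over the other lists under settings beyond library totals and DESeq2 were added after seeing the data: over all settings, 119 of these 120 counts stayed within 1.5 times, and the exception was the sensing list without Undiff replicate 1.

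The methods name no pairing of replicates between the states. Over genes, deviations from the state means had a correlation of -0.01 between same-numbered libraries. With 2 libraries per state this is a single value, which cannot show whether replicates were paired. With the replicate number as a block, 5 enzymes were lower and 1 was higher by adjusted p, and the log2 fold change of Idi1 was -1.12. The confidence intervals were narrow enough to place Mvd and Cyp51 between -0.16 and 0.24 on the log2 scale, and no closer to 0.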

Other observations

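The mean profile of the 8 enzymes over the 4 libraries, on the log2 scale and centred on each gene, was 0.21 and 0.11 in Undiff and -0.18 and -0.14 in Day4. Among 9981 other genes with a mean of at least 10 CPM, those nearest to it by Euclidean distance were Rrnad1 (0.017), Tmem110 (0.019), Cdca7l (0.028), Paox (0.028) and Gnb2l1 (0.029). Gnb2l1 encodes a scaffold protein of the small ribosomal subunit, and had 99288 and 94630 normalized counts in Undiff and 77418 and 79729 in Day4. With 4 libraries in 2 states, such nearness says little beyond a like fall between the states, and many genes have one.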
